A study of Mus musculus with 18 samples.

Results

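Glucose enters a cell through facilitated transporters of the Slc2a family and is split to pyruvate by enzymes that exist in tissue-specific isoforms. This account follows 10 genes of that route through heart cell formation from mouse embryonic stem cells: the glucose transporters Slc2a1 (GLUT1), Slc2a3 (GLUT3) and Slc2a4 (GLUT4, the insulin-responsive transporter of heart, skeletal muscle and fat), the hexokinases Hk1 and Hk2, the muscle phosphofructokinase Pfkm, the muscle phosphoglycerate mutase Pgam2, the muscle enolase Eno3, and the lactate dehydrogenase subunits Ldha and Ldhb. They were taken by name, whatever their values, from the array's probe-to-gene table. The 10 genes had 20 probe sets of their own among 45101, and all 10 were among the 13379 genes tested, of 18193 genes with a probe set.

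The cells were of the D3 embryonic stem cell line, differentiated as hanging-drop embryoid bodies, which are floating balls of differentiating cells. Cells that carried green fluorescent protein (GFP) behind an Nkx2-5 enhancer and an Hsp68 minimal promoter were sorted into GFP-positive and GFP-negative fractions on days 5, 6, 7 and 8. The selected cardiomyocytes were D3 cells that carried neomycin phosphotransferase behind the alpha myosin heavy chain (aMHC) promoter and survived the antibiotic G418, and their day is not given in the labels. RNA was hybridised to 18 one-colour arrays, 2 in each of 9 groups. The 16 sorted arrays fall into 2 batches, and below each pair of values of a sorted group is in the order batch 1, batch 2. The labels leave unsaid if both arrays of a group had cultures of their own, so p-values here reflect the scatter between these arrays alone, possibly a technical one. GFP marks cells in which the enhancer is active and is not a purification of cardiomyocytes, and the selected cells differ from the sorted ones in transgene, selection and possibly age as well as in cell type, which cannot be told apart here.

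Early embryonic cells and many dividing cells run glycolysis at a high rate with GLUT1, GLUT3, hexokinase 2 and the A subunit of lactate dehydrogenase, much of it under hypoxia-inducible factors. Heart muscle that matures turns to fatty acids and lactate as fuels, uses GLUT4 as its insulin-regulated transporter, and holds muscle isoforms of phosphofructokinase, phosphoglycerate mutase and enolase with the B subunit of lactate dehydrogenase, which favours the oxidation of lactate to pyruvate. Muscle genes are often controlled by MEF2 factors, which bind an AT-rich site.

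The RefSeq promoter table (build GRCm38.p6) held 13 entries for 8 of the 10 genes. The 250 bases before an annotated RefSeq start site are shown for the 2 muscle isoforms that were much higher in the selected cardiomyocytes, Pgam2 (chr11:5803797-5804046, minus strand) and Eno3 (chr11:70656926-70657175, plus strand), and for 2 genes that were lower there, Slc2a1 (chr4:119108495-119108744, plus strand) and Hk2 (chr6:82774455-82774704, minus strand). Each runs 5′ to 3′ towards the start site, which for Eno3 is one inside the span that RefSeq gives the gene and not its outermost start. Capitals mark matches, on either strand, to the MEF2 motif, to GGGCGG (the GC box of Sp1-type factors) and to ACGTG or GCGTG (the core bound by hypoxia-inducible factors).
Pgam2: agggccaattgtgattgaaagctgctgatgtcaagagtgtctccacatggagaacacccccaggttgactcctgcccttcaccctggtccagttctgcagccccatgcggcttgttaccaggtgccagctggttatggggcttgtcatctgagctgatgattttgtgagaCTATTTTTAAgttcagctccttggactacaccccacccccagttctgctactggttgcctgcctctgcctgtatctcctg
Eno3: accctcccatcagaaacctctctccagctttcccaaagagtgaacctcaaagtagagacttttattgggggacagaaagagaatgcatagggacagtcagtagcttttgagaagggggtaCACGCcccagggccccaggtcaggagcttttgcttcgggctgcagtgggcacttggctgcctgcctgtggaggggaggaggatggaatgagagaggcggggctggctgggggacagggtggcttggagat
Slc2a1: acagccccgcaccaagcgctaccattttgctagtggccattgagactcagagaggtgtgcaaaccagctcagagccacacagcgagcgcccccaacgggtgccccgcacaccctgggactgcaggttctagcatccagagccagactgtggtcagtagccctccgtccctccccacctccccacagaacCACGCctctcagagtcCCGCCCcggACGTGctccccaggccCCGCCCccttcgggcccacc
Hk2: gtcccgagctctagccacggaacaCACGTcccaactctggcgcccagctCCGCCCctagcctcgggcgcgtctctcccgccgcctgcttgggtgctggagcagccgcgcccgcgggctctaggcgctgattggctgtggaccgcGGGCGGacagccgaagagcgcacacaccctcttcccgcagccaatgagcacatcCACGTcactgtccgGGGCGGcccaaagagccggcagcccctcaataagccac
The Pgam2 window held the only MEF2 match among the 13 entries, 70 bases before the start site, and no match to the other motifs. The MEF2 motif matched in 2.92% of 32851 windows of this length. GGGCGG matched 2 times in the Slc2a1 window, 3 times in the Hk2 window and 2 times in 1 of the Ldha windows, and not in the entries of Hk1, Pfkm, Pgam2, Eno3 and Ldhb, against 32.7% of all windows with a match. ACGTG or GCGTG matched 2 times each in the Slc2a1 and Hk2 windows, 5 times in that Ldha window and 1 time in the other, and 1 time each in the Eno3 and Ldhb windows, against 38.6% of all windows. It matched 3 and 0 times in the 2 Hk1 windows and 2, 2, 1 and 0 times in the 4 Pfkm windows. The motifs were picked with the values already known. ACGTG overlaps its own match on the other strand where the letters are CACGTG, and a match is a run of letters, not evidence of binding.

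Arrays of the same group correlated at r = 0.954 to 0.977 across all 45101 probe sets (log2 scale), which are not independent replicates. A cardiomyocyte array correlated with a sorted array at 0.870 to 0.911. Array medians lay between 18.2 and 29.3 signal units, and precision is limited by having 2 arrays in a group. The summed signal of 10 cardiomyocyte markers was 1158 to 11042 on GFP-negative arrays, 1636 to 26436 on GFP-positive arrays and 62400 to 62557 in the selected cardiomyocytes. Both day 5 arrays of batch 2 stood apart, with a summed signal of 6 blood markers of 84 and 136, against 11314 to 30328 on the other sorted arrays. The cardiomyocyte marker sum was low in batch 2 on day 6 as well as on day 5. Over these 2 days it was 1158 to 2226 in batch 2 and 5289 to 14612 in batch 1. With arrays set to equal medians, the median log2 change of all genes between days 5 and 6 and days 7 and 8 in GFP-positive cells moved from 0.09 to -0.245, and the share of called genes that were higher moved from 58.5% to 18.1%. The same setting moved that share from 58% to 38.1% over time in GFP-negative cells, from 77.2% to 51.3% between the fractions on days 7 and 8, from 35% to 46.7% on days 5 and 6, and from 41.3% to 60.3% for the cardiomyocytes against late GFP-positive cells.

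**Figure D1:**
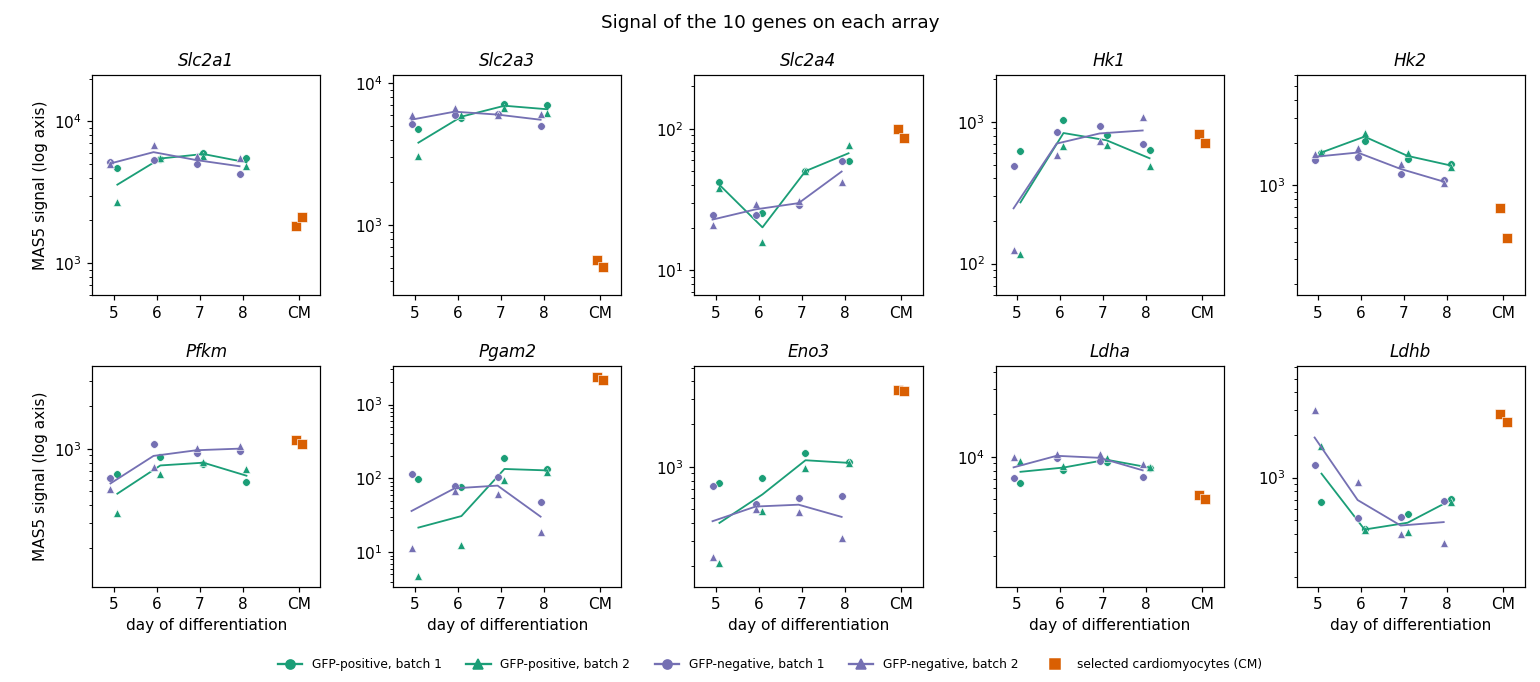
MAS5 signal (log axis) of the 10 genes by day of differentiation in GFP-positive and GFP-negative cells of both batches, with lines through the geometric means, and in the selected cardiomyocytes (CM). Slc2a1, Slc2a3, Hk2 and Ldha are lower on both cardiomyocyte arrays than on all 16 sorted arrays, and Slc2a4, Pfkm, Pgam2 and Eno3 are higher.

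The widest differences among the 10 genes lay between the selected cardiomyocytes and the sorted cells. Against GFP-positive cells of days 7 and 8, 9 of the 10 passed the test, 5 higher and 4 lower, where 43.3% of all genes tested passed. Against GFP-negative cells of the same days 8 passed, 4 higher and 4 lower, where 46.2% of all genes passed. Both comparisons use the same 2 cardiomyocyte arrays, and values from both are given side by side. Each error is the standard error (SE) of a difference in the limma model of log2(signal + 6.8), adjusted p-values come from that model by the Benjamini-Hochberg method over all genes, the threshold is 0.05, and folds on this scale understate changes of dim genes. The sorted fractions held signal of other cell types that the cardiomyocytes lacked: of 9 endothelial, 6 blood and 6 visceral endoderm markers tested, 9, 6 and 5 were lower in the cardiomyocytes than in late GFP-positive cells. Their summed signals on late GFP-positive arrays were 2791 to 5262, 20789 to 23034 and 6593 to 19502, against 194 to 202, 58.4 to 74.1 and 235 to 303 in the cardiomyocytes. Visceral endoderm sums, here and below, are over all 7 listed markers, with Apoa4, which was too dim to be tested. The part of these cell types in the differences of the 10 genes was not tested. In RNA from many cells, a gene's level per cell and the share of cells that express it cannot be told apart.

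Slc2a3, a high-affinity transporter of early embryo and neurons, was lower in the cardiomyocytes by more than any other of the 10. Its signal in GFP-positive cells was 4769 and 3053 on day 5, 5680.0 and 5969 on day 6, 7184 and 6731 on day 7, and 7001 and 6155 on day 8. In GFP-negative cells it was 5147 and 5977 on day 5, 5943 and 6707 on day 6, 6053 and 5989 on day 7, and 5040.5 and 6084 on day 8. The selected cardiomyocytes gave 569 and 508. All 16 sorted arrays were thus above both cardiomyocyte arrays, with the lowest sorted value on day 5 in GFP-positive cells of batch 2. The log2 difference from late GFP-positive cells was -3.64 ± 0.16 (SE, 2 arrays against 4; adjusted p = 1.88e-08), a 12.4-fold lower level, and from late GFP-negative cells -3.41 ± 0.16 (adjusted p = 2.43e-08). The other 3 probe sets of Slc2a3, which were dimmer, differed from late GFP-positive cells by -3.80, -1.61 and -4.54.

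Slc2a1, the basal transporter of most cells, was also lower. GFP-positive cells gave 4726 and 2712 on day 5, 5445 and 5508 on day 6, 6035 and 5748 on day 7, and 5497 and 4814 on day 8. GFP-negative cells gave 5139.8 and 4971 on day 5, 5378 and 6855 on day 6, 4992 and 5703 on day 7, and 4233 and 5509 on day 8. The cardiomyocyte arrays, at 1833 and 2123, lay below all of these. The difference was -1.48 ± 0.19 against late GFP-positive cells (adjusted p = 6.1e-05, 2.78-fold lower) and -1.36 ± 0.19 against late GFP-negative cells (adjusted p = 9.42e-05), and the other 2 probe sets gave -1.64 and -1.88 in the first comparison.

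Slc2a4 went the other way from a dim base. In GFP-positive cells its signal was 42.4 and 38.2 on day 5, 25.4 and 16 on day 6, 50.1 and 50.5 on day 7, and 58.8 and 76.8 on day 8. In GFP-negative cells it was 24.8 and 21.1, then 24.8 and 29.4, then 29.0 and 30.8, then 59.5 and 41.9 on days 5 to 8. The cardiomyocytes, at 99.8 and 85.8, were above every sorted array. Against late GFP-negative cells the difference was 1.12 ± 0.23 (adjusted p = 0.00136, 2.18-fold), a call lost with the mean over its probe sets (0.593, adjusted p = 0.153). Against late GFP-positive cells it was 0.61 ± 0.23 (adjusted p = 0.0436), and this call was lost in 17 of 30 alternatives, among them leaving out either cardiomyocyte array. The second, dimmer Slc2a4 probe set, at 1.5 to 27.6 on sorted arrays, differed by -0.18 from late GFP-positive and by 0.07 from late GFP-negative cells, so the 2 probe sets disagree.

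Of the other facilitated hexose transporters, 6 of 8 listed genes were tested. Against late GFP-positive cells, where 43.3% of all genes passed, Slc2a10 (1.45 ± 0.37, adjusted p = 0.00633) and Slc2a13, a proton-linked myo-inositol transporter (0.99 ± 0.27, adjusted p = 0.0102), were higher and Slc2a12 was lower (-1.05 ± 0.34, adjusted p = 0.0233), with a list median of 0.33 beside -0.13 for all genes. The calls of Slc2a12 and Slc2a13 were lost without cardiomyocyte array 2, that of Slc2a13 also without array 1, and that of Slc2a12 also without day 7 or day 8 GFP-positive of batch 1.

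Hexokinases trap glucose in the cell as its phosphate. Hk2, the inducible hexokinase of embryo, muscle and tumour cells, gave 1692 and 1724 on day 5, 2068 and 2362 on day 6, 1533 and 1702 on day 7, and 1411 and 1355 on day 8 in GFP-positive cells. In GFP-negative cells it gave 1516 and 1671, then 1577 and 1846, then 1202 and 1421, then 1087 and 1040.5 on days 5 to 8. The cardiomyocytes gave 687 and 426, below every sorted array. The difference was -1.45 ± 0.16 against late GFP-positive cells (adjusted p = 2.29e-05, 2.74-fold lower) and -1.11 ± 0.16 against late GFP-negative cells (adjusted p = 0.000144).

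Hk1, the hexokinase found in nearly all tissues, missed the threshold in both comparisons. Its signal in GFP-positive cells was 625 and 117 on day 5, 1035 and 674 on day 6, 804 and 686 on day 7, and 632 and 486 on day 8. GFP-negative cells gave 485 and 124, then 847 and 584, then 935 and 736, then 695 and 1091 on days 5 to 8. The cardiomyocyte values, 824 and 710.1, lay within the sorted range, and Hk1 was the only one of the 10 genes that missed the threshold against late GFP-positive cells (0.25 ± 0.56, adjusted p = 0.749). The 2 low values are both day 5 arrays of batch 2. A second, dimmer Hk1 probe set, at 18.2 to 249.5 on sorted arrays, differed by 0.81 from late GFP-positive and by 0.21 from late GFP-negative cells. A further probe set that matches Hk1 also matches Rpl17 and pseudogenes of it, and was left out.

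Pfkm encodes the muscle subunit of phosphofructokinase, which commits sugar to glycolysis. GFP-positive cells gave 660.3 and 352 on day 5, 882 and 661 on day 6, 784 and 813 on day 7, and 581 and 719 on day 8. GFP-negative cells gave 619 and 524, then 1075 and 739, then 937 and 1019.9, then 964 and 1044 on days 5 to 8. The cardiomyocytes, at 1163 and 1076, were above all sorted arrays by a narrow margin over the highest GFP-negative ones. The difference was 0.64 ± 0.23 against late GFP-positive cells (adjusted p = 0.0362), lost in 7 of 31 alternatives including the removal of either cardiomyocyte array (adjusted p = 0.18 and 0.113), quantile normalization and the removal of any late GFP-positive array except day 8 of batch 2. Against late GFP-negative cells it was 0.17 ± 0.23 (adjusted p = 0.556).

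Pgam2, which turns 3-phosphoglycerate into 2-phosphoglycerate in muscle, had the largest rise of the 10. Its signal in GFP-positive cells was 96.7 and 4.8 on day 5, 75.6 and 12.6 on day 6, 189 and 95.2 on day 7, and 133 and 124 on day 8. In GFP-negative cells it was 115 and 11.4 on day 5, 78.4 and 68.5 on day 6, 104 and 61.0 on day 7, and 48.6 and 18.9 on day 8. The cardiomyocytes gave 2373 and 2154. No sorted array came near these, and 4 sorted arrays, 3 of them of days 5 and 6 in batch 2, were under the median signal of all values, 22.5. The difference was 4.04 ± 0.85 against late GFP-positive cells (adjusted p = 0.00209, 16.4-fold higher) and 5.31 ± 0.85 against late GFP-negative cells (adjusted p = 0.000277, 39.6-fold higher).

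Eno3, the next enzyme in muscle, was also higher in the cardiomyocytes. GFP-positive cells gave 764 and 211 on day 5, 829.8 and 491 on day 6, 1258 and 982 on day 7, and 1073 and 1058 on day 8. GFP-negative cells gave 735 and 232 on day 5, 544 and 505 on day 6, 604 and 482 on day 7, and 621 and 316 on day 8. The cardiomyocytes stood clear of all of them at 3479.9 and 3435. The difference was 1.66 ± 0.48 against late GFP-positive cells (adjusted p = 0.0137, 3.16-fold) and 2.80 ± 0.48 against late GFP-negative cells (adjusted p = 0.000445, 6.98-fold). The first of these calls was lost when either cardiomyocyte array was left out (adjusted p = 0.0781 and 0.0765).

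Skeletal muscle also uses Pgam2 and Eno3, so the signals of its markers are given here. Of 8 skeletal muscle markers, Myog, Myod1, Myf5, Myf6 and Ckm were under the median signal on all 18 arrays. The summed signal of the 8 was 154 to 743 on sorted arrays and 2058 to 2131 in the cardiomyocytes. Of the 3 that could be tested Acta1, the skeletal alpha actin that embryonic heart also makes, was higher than in late GFP-positive cells (2.37 ± 0.69, limma adjusted p = 0.0138). Mylpf (-0.58 ± 0.25, adjusted p = 0.082) and Tnnt3 (0.23 ± 0.41, adjusted p = 0.686) did not pass in that comparison. Against late GFP-negative cells all 3 passed, 2 higher and 1 lower in the cardiomyocytes. The summed signal of 5 smooth muscle markers was 1061 to 6870 on sorted arrays and 16880 to 17678 in the cardiomyocytes. Whether skeletal or smooth muscle cells contributed to any of the 10 signals was not tested.

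The 2 lactate dehydrogenase subunits moved in opposite directions. Ldha, the subunit of tissues that make lactate, gave 6567 and 9365 on day 5, 8129.6 and 8687 on day 6, 9249 and 9852 on day 7, and 8316 and 8477 on day 8 in GFP-positive cells. GFP-negative cells gave 7094 and 10021, then 9884 and 10468, then 9295 and 10427, then 7222 and 8939 on days 5 to 8. At 5406 and 5079 the cardiomyocytes were below all sorted arrays, by -0.77 ± 0.16 against late GFP-positive cells (adjusted p = 0.00165) and -0.76 ± 0.16 against late GFP-negative cells (adjusted p = 0.00156).

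Ldhb, the subunit of heart, gave 678 and 1678 on day 5, 430.5 and 429.9 on day 6, 558 and 414 on day 7, and 708 and 677 on day 8 in GFP-positive cells. GFP-negative cells gave 1222 and 3017 on day 5, 522 and 925 on day 6, 525 and 402 on day 7, and 680.3 and 346 on day 8. The cardiomyocytes gave 2803 and 2458, above every late array but overlapping day 5, whose GFP-negative array of batch 2 held the highest value of all. The difference was 2.17 ± 0.40 against late GFP-positive cells (adjusted p = 0.000883, 4.51-fold) and 2.46 ± 0.40 against late GFP-negative cells (adjusted p = 0.000323, 5.49-fold). The other 3 Ldhb probe sets gave 2.49, 2.29 and 2.33 in the first comparison.

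**Figure D2:**
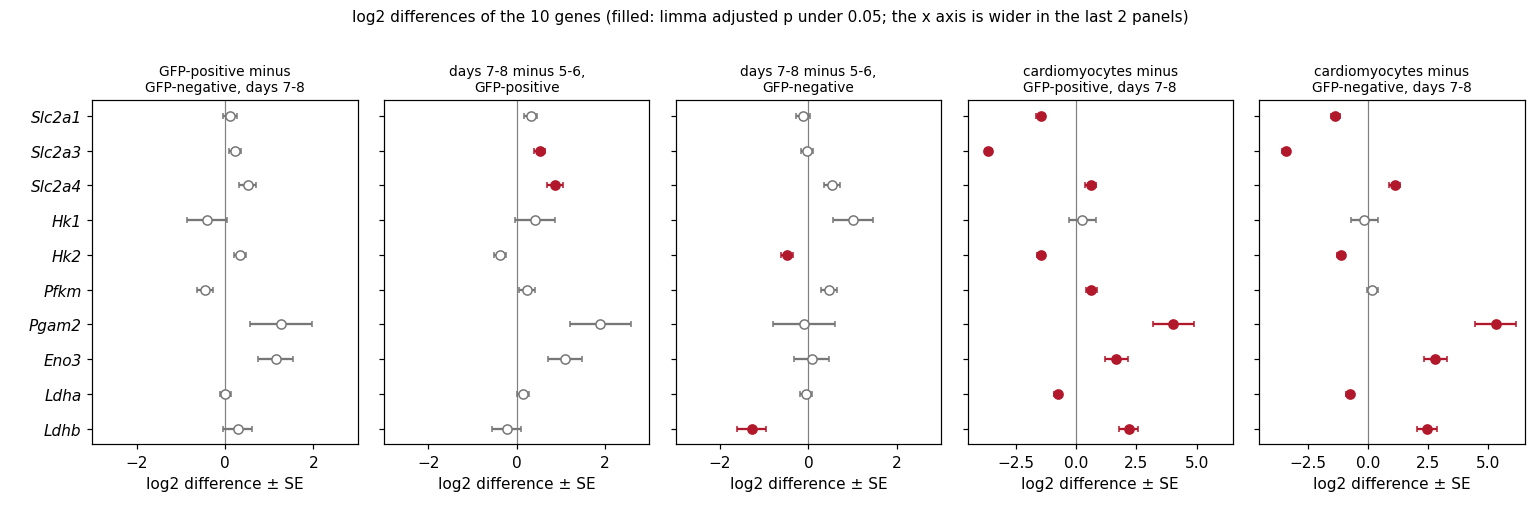
log2 differences of the 10 genes ± SE in 5 comparisons, with filled points for a limma adjusted p under 0.05 and a wider axis in the last 2 panels. Against late GFP-positive cells the cardiomyocytes differ by -3.64 for Slc2a3 and 4.04 for Pgam2, while no gene is filled between the sorted fractions on days 7 and 8.

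Ordered by group mean, the selected cardiomyocytes came last of 9 groups for Slc2a1, Slc2a3, Hk2 and Ldha and first for Slc2a4, Pfkm, Pgam2, Eno3 and Ldhb, each time with no overlap with the next group except for Ldhb. Among the 8 sorted groups most neighbours in that order overlapped. For Hk1, with the cardiomyocytes at rank 4, all neighbours overlapped.

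Leaving out either cardiomyocyte array kept 6 of the 9 calls against late GFP-positive cells, and the 3 lost each time were Slc2a4, Pfkm and Eno3. The count against late GFP-negative cells stayed at 8 when each of the 18 arrays was left out in turn. Without the day 5 arrays of batch 2 in both fractions, a setting chosen after the values were seen, 8 genes passed against late GFP-positive cells, and Slc2a4 was the one lost (adjusted p = 0.0549).

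Ratios between isoforms within an array do not depend on the array's scaling apart from the offset, and only their change between arrays is read here. Of 8 listed ratios 7 could be formed; Eno3 over Eno1 could not, since no probe set was assigned to Eno1 alone. The log2 ratio of Pgam2 over Pgam1, its counterpart in most other tissues, was -4.97 ± 0.43 (SD, n = 4) in late GFP-positive cells and -0.62 in the cardiomyocytes, a change of 4.35. Ldhb over Ldha changed by 2.94, from -3.94 ± 0.46 (SD, n = 4) to -0.996. Pfkm over Pfkl, the liver subunit, changed by 2.43, from -1.86 ± 0.19 (SD, n = 4) to 0.58. These 3 shifts ran towards the muscle or heart isoform, which does not hold for every ratio. Hk1 over Hk2, given below, moved away from Hk2, which muscle also uses, and Pfkm over Pfkp changed by only 0.43.

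Slc2a4 over Slc2a1 changed by 2.09, Slc2a1 over Slc2a3 by 2.16 and Hk1 over Hk2 by 1.71 from late GFP-positive cells to the cardiomyocytes. For these 6 ratios both cardiomyocyte arrays were above all 16 sorted arrays. Pfkm over Pfkp, the platelet subunit, changed by 0.43 and its cardiomyocyte values, -0.054 and -0.105, fell within the sorted range. Against late GFP-negative cells Pfkm over Pfkp changed by -0.39 and Hk1 over Hk2 by 0.96, each with an exact permutation p of 0.133. The other ratios changed by 2.01 to 5.64 in that comparison. An exact permutation test of 2 arrays against 4 cannot give a two-sided p under 0.0667, and all 7 ratios gave that value against late GFP-positive cells. None was therefore called.

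**Figure D3:**
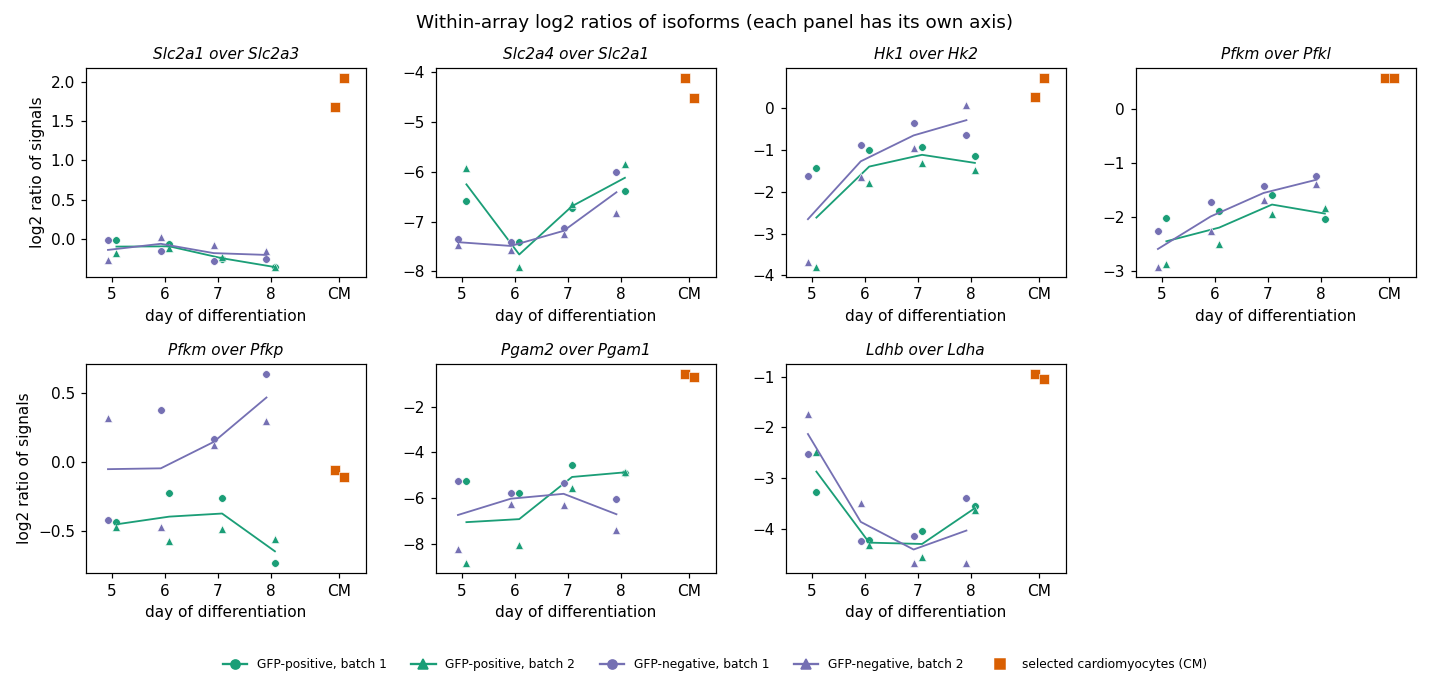
Within-array log2 ratios of isoform signals for 7 pairs by day, fraction and batch, with the selected cardiomyocytes (CM) at the right and a separate axis in each panel. In 6 panels the 2 cardiomyocyte points lie above all 16 sorted arrays, and in the panel of Pfkm over Pfkp they lie between the 2 fractions of day 8.

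Between early and late days fewer of the 10 genes passed. In GFP-positive cells Slc2a3 and Slc2a4 were higher on days 7 and 8 than on days 5 and 6, 2 of 10 genes where 19.4% of all genes passed. With batch as a block 5 passed, adding Pgam2, Eno3 and, as the only lower gene, Hk2. The share of 19.4% belongs to the fit without the block and is no measure for that count. Slc2a4 rose by 0.86 ± 0.19 (4 arrays against 4, adjusted p = 0.010) with no overlap between early and late arrays, and with arrays set to equal medians it stayed past the threshold, while quantile normalization (0.46, adjusted p = 0.0854), the mean over its probe sets (0.77, adjusted p = 0.0566) and leaving out day 6 GFP-positive of batch 2 (adjusted p = 0.053) ended the call. Slc2a3 rose by 0.52 ± 0.13 (adjusted p = 0.0167) but by 0.18 with equal medians (adjusted p = 0.37), and without the low day 5 array of batch 2 by 0.36 (adjusted p = 0.0582). Leaving out day 6 of batch 2, day 7 of batch 1 or day 8 of batch 1 in GFP-positive cells also ended the Slc2a3 call, at adjusted p = 0.0555, 0.0774 and 0.0598.

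The differences of the muscle isoforms in the same comparison had wide errors. Pgam2 gave a log2 difference of 1.89 ± 0.70 (adjusted p = 0.0722; with the batch block 0.00926), with 0.84 within batch 1 and 2.94 within batch 2. Eno3 gave 1.09 ± 0.39 (adjusted p = 0.0668; with the block 0.0109), with 0.54 within batch 1 and 1.64 within batch 2. Hk2 gave -0.38 ± 0.13 (adjusted p = 0.0638; with the block 0.0478), and with equal array medians it was lower by more (-0.71, adjusted p = 0.00492). The other 5 genes had adjusted p-values between 0.17 and 0.66.

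The 10 cardiomyocyte markers had a median change of 2.35 over the same days, 3 of them past the threshold, and 6 visceral endoderm markers one of 3.36, with 3 past it. For the markers the summed signals on early and late GFP-positive arrays were 1636 to 14612 and 17195 to 26436 for cardiomyocytes, and 119 to 5723 and 6593 to 19502 for visceral endoderm (all 7 listed). Of 9 endothelial markers 5 were higher (median 1.13, sums of 356 to 3416 early and 2791 to 5262 late), and of 6 blood markers 2 (median 2.83, sums of 136 to 18059 early and 20789 to 23034 late). The part of these cells in the changes of the 10 genes was not tested.

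In GFP-negative cells Hk2 and Ldhb were lower on days 7 and 8 than on days 5 and 6, 2 of 10 genes where 12.5% of all genes passed. Slc2a4, called higher over time in GFP-positive cells, was also higher here, by 0.53 ± 0.19, without passing (limma adjusted p = 0.0785). Its rise in GFP-positive and GFP-negative cells was 0.618 and 0.625 in batch 1, and 1.112 and 0.429 in batch 2. Hk2 fell by 0.48 (SE 0.13, adjusted p = 0.0347), with -0.43 in batch 1 and -0.53 in batch 2, and no late array reached an early one. Ldhb fell by 1.28 (SE 0.33, adjusted p = 0.0263), with -0.41 in batch 1 and -2.14 in batch 2, and its early and late arrays overlapped. Neither gene passed when the GFP-negative array of day 5, day 6 or day 8 of batch 2 or of day 7 of batch 1 was left out. Leaving out day 7 of batch 2 also ended the call of Ldhb, and leaving out day 8 of batch 1 or either day 8 GFP-positive array that of Hk2. Their adjusted p-values then were 0.0502 to 0.138 for Hk2 and 0.0665 to 0.121 for Ldhb. The Hk2 call was also lost with array weights (adjusted p = 0.112) and without the variance trend (adjusted p = 0.0602). Of 6 blood markers 3 were higher on the late days (median 3.45), with sums of 83.6 to 24943 on early and 26548 to 30328 on late GFP-negative arrays, and their part in these changes was not tested.

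For Ldhb the removal of the day 5 array of batch 2 brought the fall to 0.955 (adjusted p = 0.108). The Hk1 difference of 1.01 ± 0.46 (adjusted p = 0.163) was 0.33 in batch 1 and 1.70 in batch 2, and the summed signal of 7 pluripotency markers on the day 5 GFP-negative array of batch 2, 5375, was the highest of all arrays. Whether undifferentiated cells carried the high Ldhb and low Hk1 signals of that array was not tested.

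No gene of the 10 passed a test of a different change over time in the 2 fractions (limma), where 0.142% of all genes passed, and Slc2a3 and Ldhb had an unadjusted p under 0.05. The Slc2a3 change was 0.55 ± 0.18 larger in GFP-positive cells (adjusted p = 0.211), and 0.0406 was its adjusted p without day 5 GFP-positive of batch 1.

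Between GFP-positive and GFP-negative cells, over all days, none of the 10 passed in limma, where 2.68% of all genes did, and 4 had an unadjusted p under 0.05. On days 5 and 6 none passed, where 0.149% of all genes did, and Slc2a3 and Ldhb had such a p. On days 7 and 8 none passed, where 6.63% did, and 4 had such a p. With batch as a block 1 gene, Eno3, passed on days 7 and 8, while the share of 6.63% belongs to the fit without the block.

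The Eno3 difference, GFP-positive minus GFP-negative on days 7 and 8, was 1.14 ± 0.39 (2.21-fold, 4 arrays against 4, adjusted p = 0.101, and 0.0196 with the block), and all 4 GFP-positive arrays, 982 to 1258, were above all 4 GFP-negative ones, 316 to 621. It also passed when either day 5 GFP-positive array was left out (adjusted p = 0.0433 and 0.0438), which changes only the estimate of spread. Pgam2 differed by 1.27 ± 0.70 on these days (adjusted p = 0.286) and was higher in 4 of 4 pairs, after being lower in GFP-positive cells in all 4 pairs of days 5 and 6. The cardiomyocyte marker sum on late arrays was 17195 to 26436 in GFP-positive and 3725 to 11042 in GFP-negative cells, and that of 9 endothelial markers 2791 to 5262 and 576 to 989. Of 6 visceral endoderm markers tested 4 were higher in GFP-positive cells on these days (median 2.57), with sums over all 7 listed of 6593 to 19502 against 1755 to 4255. The part of these cells in the Eno3 difference was not tested.

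In all 8 pairs of equal day and batch the Hk2 signal of GFP-positive cells was the higher one, by 0.29 ± 0.10 over all days (adjusted p = 0.124). Hk2 passed in 1 of 31 alternatives, quantile normalization (adjusted p = 0.0488), and with equal array medians the difference was 0.24 (adjusted p = 0.258). Pfkm was lower in 7 of 8 pairs (-0.34 ± 0.13, adjusted p = 0.177), and its ratio to Pfkp was lower in 8 of 8 pairs, by -0.598 on the log2 scale (exact permutation test over the pairs, two-sided p = 0.0078, the smallest 8 pairs can give, adjusted p = 0.15 over 21 tests). Ldha was lower in 7 of 8 pairs but by only -0.09 ± 0.09 (adjusted p = 0.647), and Slc2a1, Slc2a3, Pgam2 and Ldhb were split 4 to 4. For Slc2a3, Pgam2 and Ldhb the split ran with time. They were lower in GFP-positive cells in all 4 pairs of days 5 and 6 and higher in all 4 of days 7 and 8. Some late differences were small, down to 0.02 for Slc2a3 and 0.04 for Ldhb, and none of the 3 genes passed the test of a different change over time. No ratio passed after adjustment in any of the 3 comparisons among sorted cells.

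Of 17 other glycolysis genes listed, 11 were tested, and 5 were lower and none higher in the cardiomyocytes than in late GFP-positive cells, where 43.3% of all genes passed. Pfkl fell most (-1.80 ± 0.16, adjusted p = 3.6e-06), then the brain-type aldolase Aldoc (-1.31 ± 0.16, adjusted p = 4.93e-05), phosphoglycerate kinase Pgk1 (-0.67 ± 0.13), triosephosphate isomerase Tpi1 (-0.54 ± 0.12) and the muscle aldolase Aldoa (-0.42 ± 0.11). The list median was -0.31 beside -0.13 for all genes, and with equal array medians it was -0.06 beside 0.114, with Pfkl and Aldoc still lower and Eno2, the neuronal enolase, higher (adjusted p = 0.0406). Aldoc was also lower in GFP-positive than in GFP-negative cells over all days (-0.66 ± 0.09, adjusted p = 0.00387), and higher on late than early days in GFP-positive (1.05 ± 0.13, adjusted p = 0.00396) and GFP-negative cells (0.66 ± 0.13, adjusted p = 0.0106, lost without day 7 GFP-negative of batch 1). The call over all days and that over time in GFP-positive cells were both lost with the mean over all probe sets of the gene.

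Genes that carry lactate and steer pyruvate split evenly in the cardiomyocytes against late GFP-positive cells, 5 higher and 5 lower of 13 tested, where 43.3% of all genes passed. The 6 largest differences were those of Pfkfb4 (-2.89 ± 0.56, adjusted p = 0.00115), which makes and breaks down a sugar phosphate that activates phosphofructokinase, the pyruvate dehydrogenase kinase Pdk1 (-2.29 ± 0.34, adjusted p = 0.000186), the mitochondrial pyruvate carrier Mpc1 (2.21 ± 0.39, adjusted p = 0.000647), the lactate carrier Slc16a3 (-1.91 ± 0.16, adjusted p = 3.14e-06), the kinase Pdk4 of fasting muscle and heart (1.82 ± 0.44, adjusted p = 0.00452) and the lactate carrier Slc16a1 (-1.25 ± 0.27, adjusted p = 0.00219). The list median was -0.38, and Pdk4 lost its call without cardiomyocyte array 1 and with the day 8 sorted arrays as reference. On days 7 and 8 Slc16a1 was higher (1.31 ± 0.22, adjusted p = 0.00586) and Mpc1 lower (-1.19 ± 0.32, adjusted p = 0.0439, lost in 15 of 31 alternatives) in GFP-positive than in GFP-negative cells.

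**Figure D4:**
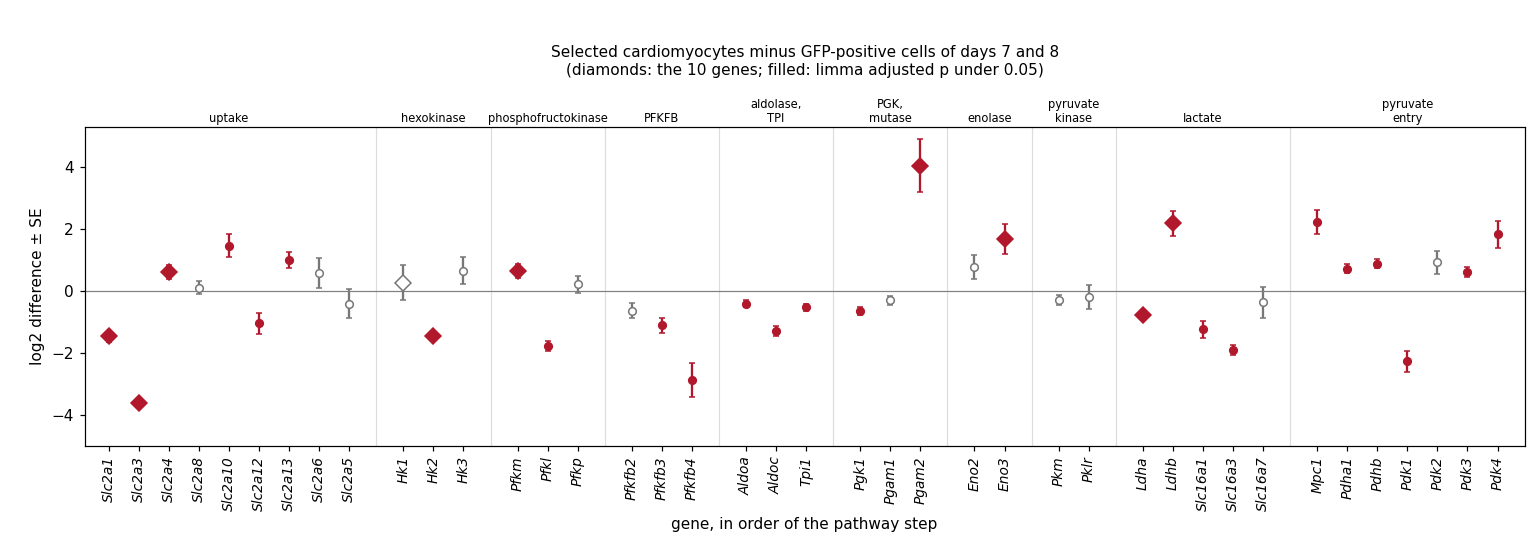
log2 differences ± SE between the selected cardiomyocytes and GFP-positive cells of days 7 and 8 for the tested genes of glucose uptake, glycolysis, lactate and pyruvate, in pathway order; diamonds are the 10 genes and filled points passed a limma adjusted p under 0.05. Pgam2 stands at 4.04 and Ldhb at 2.17, while Pfkl stands at -1.80 and Ldha at -0.77.

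Slc2a1, Slc2a3, Hk2 and Ldha are known targets of hypoxia-inducible factors, and 14 genes of the same response outside glycolysis were tested. In GFP-positive cells 7 of them were higher on days 7 and 8 than on days 5 and 6 and none lower, where 19.4% of all genes passed, among them Epas1 (2.49 ± 0.81, adjusted p = 0.0472, lost in 20 of 31 alternatives), Adm (1.64 ± 0.27, adjusted p = 0.00506), Car9 (1.24 ± 0.27, adjusted p = 0.0101, lost without day 7 GFP-positive of batch 1) and Ankrd37 (1.23 ± 0.25, adjusted p = 0.0085); with equal array medians 4 were higher and 2 lower. In the cardiomyocytes, where 43.3% of all genes passed, 7 were lower than in late GFP-positive cells, led by Ankrd37 (-4.05 ± 0.31, adjusted p = 1.23e-06), Egln3 (-3.73 ± 0.19, adjusted p = 4.98e-08), Kdm3a (-2.38 ± 0.17, adjusted p = 7.62e-07) and Bnip3 (-2.21 ± 0.19, adjusted p = 3.36e-06). P4ha2, a collagen prolyl hydroxylase (1.33 ± 0.36, adjusted p = 0.0102, lost without either cardiomyocyte array and with the day 8 sorted arrays as reference), was 1 of 2 that were higher. The other, named after its values were seen, was Hif1a, a subunit of the factor itself (0.65 ± 0.16, adjusted p = 0.00464, lost with quantile normalization and with the mean over its probe sets). The list median was -1.06 in that comparison, beside -0.13 for all genes.

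Of 12 tested genes of insulin and PPAR control, 6 were higher and 3 lower in the cardiomyocytes than in late GFP-positive cells, where 43.3% of all genes passed. The AMP-activated kinase subunit Prkaa2 (2.53 ± 0.31, adjusted p = 4.17e-05), the coactivator Ppargc1a (2.47 ± 0.67, adjusted p = 0.00967), Irs1 (1.82 ± 0.40, adjusted p = 0.0029) and Akt1 (1.19 ± 0.24, adjusted p = 0.00133) were higher and Irs2 was lower (-1.41 ± 0.32, adjusted p = 0.00324). Ppargc1a lost its call when either cardiomyocyte array was left out, and Irs2 without array 1.

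Among all genes tested, the 3 whose group means followed each of the 10 most closely were picked by Pearson's r over the 9 group means of log2(signal + 6.8), which all share the 2 cardiomyocyte arrays, so these values are a description. For Slc2a1 they were Pdk1 (r = 0.985), Nup210 and Pgk1, and for Ldha Eef2 (0.986), Pgk1 and Rps9, so the 2 lists share Pgk1. Slc2a3 was followed by Banp (0.992), Lcmt1 and Snhg16, and Hk2 by Stc2 (0.991), Akirin2 and Slc25a15. For Eno3 they were Itgb1bp2 (0.985), Jph2 and Nexn, genes of the striated muscle cell, and for Pgam2 Hspb2 (0.984), Lims2 and Hs6st1. Slc2a4 had Atp6ap2 (0.980), Prkce and Ube2d-ps, Pfkm had Prkag1 (0.976), Tecr and Borcs7, Hk1 had Gucy1a1 (0.954), Ccnd3 and Ddit3, and Ldhb had Gnai1 (0.983), Ift43 and Pid1. Between the 10 genes themselves, over the 18 arrays, the closest pairs were Pgam2 with Eno3 (r = 0.96) and Slc2a1 with Slc2a3 (r = 0.94).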

How the data were processed

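RNA from 16 sorted fractions and 2 selected cardiomyocyte samples was measured on 18 one-colour Affymetrix arrays, after 2 rounds of amplification from a T7 oligo dT primer per the labels' protocols, which favours the 3′ ends of transcripts. The authors deposited linear MAS5 signal intensity, for which the submitters' processing notes name GCOS 1.4 and MAS5. No detection calls or scanner files were used here, so background was judged from the signal alone. The mean of each array without the top and bottom 2% of probe sets was 150.0008 to 150.0012 units, so the arrays had been scaled to a common trimmed mean.

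Of 45101 probe sets, 64 controls, 9160 without a gene symbol and 932 with several were left out. A gene's probe set with the highest mean stood for it, and one of type x was used if it was the gene's sole kind. Tests covered genes that reached 22.5 (the overall median signal) on 2 or more arrays, as log2(signal + 6.8), the offset being the 25th percentile. A mean for each of the 9 groups was estimated by limma 3.58.1 under R 4.3.3 (eBayes with trend, 9 residual degrees of freedom, 8 with batch as a block), with Benjamini-Hochberg adjustment over 13379 genes and a threshold of 0.05. The labels name the batch of each sorted array, so batch numbers pair samples; batch differences of 28 pairs of groups correlated at -0.183 to 0.653 across genes, 13 of them over 0.1. The fit and the permutation tests were tested on simulated data. Isoform ratios were compared with exact permutation tests over arrays, two-sided. Plots were drawn with Python 3.11.15 and matplotlib 3.10.9.

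The 10 genes and the gene and marker lists were chosen with earlier results of these data known. All 10 genes are named whatever their values; of each other list, up to 6 genes past the threshold in the comparison described, by size; and for likeness the 3 genes with the highest r. Alternatives covered the offset, the scaling, the filter, which probe sets stand for a gene, array weights, the trend in variance, batch, the arrays in the fit and the reference days.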

Additional observations from a re-analysis of the deposited data

How the results depend on the processing

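Over all alternatives, 2391 of 2472 values of the 10 genes kept their side of the threshold, 51 lost a call and 30 gained one. No called value turned its sign, and 46 values called in neither fit did. For the cardiomyocytes the number of the 10 genes called was 8 or 9 against late GFP-positive cells and 7 or 8 against late GFP-negative cells in every setting that left no array out singly. Elsewhere it changed as follows. With the replicate block (batch) it was 5 over time in GFP-positive cells and 1 between the fractions on days 7 and 8, and it changed no other call of the 10 genes. Quantile normalization gave 1 between the fractions over all days and 1 on days 7 and 8. Over time in GFP-positive cells, array weights gave 4, the sorted arrays alone 3, a filter at 4 times the median signal 1 and the mean over all probe sets 1; over time in GFP-negative cells array weights gave 1. Without the day 5 arrays of batch 2, a setting chosen after seeing the data, the counts were 1 over time in GFP-positive cells, 1 in GFP-negative cells and 1 between the fractions on days 7 and 8. Leaving out each array in turn gave 0 to 5 over time in GFP-positive cells, 0 to 3 in GFP-negative cells, 0 to 1 for the difference of these changes, 0 to 1 between the fractions over all days and on days 7 and 8, 6 to 9 for the cardiomyocytes against late GFP-positive cells and 8 against late GFP-negative cells; the array left alone in its group was taken to scatter as arrays of other groups do. No isoform ratio was called in any of 329 values under alternatives, among them leaving out each sorted array in turn, and 2 of these uncalled values turned their sign. Slc2a4 and Pgam2 had signals near or under the overall median in many sorted samples, and no detection call was used for them. The share of all genes that passed in each setting is not given with these counts, so they do not set the 10 genes apart from other genes. Causes of these shifts were not tested.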
